A study of Mus musculus with 48 samples.

Results

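The endothelial cells of the mouse hypothalamus at embryonic day E18.5 were chosen by their own transcripts in a single-cell RNA-sequencing table, as the cells with at least 3 of 6 endothelial genes detected, namely *Cldn5*, *Pecam1*, *Flt1*, *Ly6c1*, *Cdh5* and *Ly6a*. This gave 251 of 14121 cells (1.78%), 134 of 7186 in control and 117 of 6935 in *Eed-cKO*. The study removed *Eed*, which encodes a core subunit of polycomb repressive complex 2 (PRC2), from the neural lineage and asked what this did to the hypothalamus. Cells of 15 embryos were captured in droplets in 48 libraries and their transcripts were counted as unique molecular identifiers (UMIs), each UMI being 1 captured molecule. Control embryos were Eed fl/fl (6 embryos, 22 libraries) and *Eed-cKO* embryos were Eed fl/fl; Sox1-Cre/+ (9 embryos, 26 libraries), so every embryo carried the floxed allele and the Cre was the labelled difference between the groups. The Cre was inserted in the *Sox1* locus and acts in the early neural tube, the mice were of a mixed B6 and 129S1 background, and no litter held both genotypes where litters were read from the library names (4 control and 6 *Eed-cKO* litters), so litter and genotype cannot be told apart. The study took non-neural cells such as these to lie outside the lineage that *Sox1-Cre* targets, so the comparison asked how the vessel cells differ when the surrounding neural tissue lacks *Eed*.

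Endothelial cells line the blood vessels. In the brain they are joined by tight junctions and carry a set of transporters for glucose, amino acids, lipids and hormones, which together form the blood-brain barrier, while vessels of the median eminence and choroid plexus are fenestrated and leaky. Brain vessels grow in from the surrounding mesenchyme, guided by VEGF and Wnt ligands from neural cells, and endothelial cells respond to inflammatory signals through NF-kappaB, which induces adhesion molecules such as ICAM1 and its own inhibitor, encoded by *Nfkbia*. PRC2 places the repressive H3K27me3 mark on histones, and Hox genes and the cell cycle inhibitors of the *Cdkn2* family are among its best known targets.

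In the endothelial cells of *Eed-cKO* embryos 12 genes rose and 11 fell, among them *Icam1*, *Nfkbia*, *Fosb* and *Sqstm1*, which rose, and *Gbp3*, which fell. The 250 bases before the RefSeq transcription start are shown for these 5, *Icam1* (chr9:21015690-21015939, + strand), *Nfkbia* (chr12:55492648-55492897, - strand), *Fosb* (chr7:19310046-19310295, - strand), *Sqstm1* (chr11:50210821-50211070, - strand) and *Gbp3* (chr3:142559794-142560043, + strand), as windows of build GRCm38.p6, 5′ to 3′ on the strand of the gene. Capitals mark a match to the NF-kappaB consensus in *Nfkbia*, *Fosb* and *Sqstm1* and a match to the interferon-stimulated element on either strand in *Gbp3*, where 2 matches overlap.
Icam1: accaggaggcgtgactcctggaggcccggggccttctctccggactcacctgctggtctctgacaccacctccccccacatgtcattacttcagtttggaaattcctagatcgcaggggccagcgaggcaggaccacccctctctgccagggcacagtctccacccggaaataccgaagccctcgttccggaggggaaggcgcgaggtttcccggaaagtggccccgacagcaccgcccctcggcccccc
Nfkbia: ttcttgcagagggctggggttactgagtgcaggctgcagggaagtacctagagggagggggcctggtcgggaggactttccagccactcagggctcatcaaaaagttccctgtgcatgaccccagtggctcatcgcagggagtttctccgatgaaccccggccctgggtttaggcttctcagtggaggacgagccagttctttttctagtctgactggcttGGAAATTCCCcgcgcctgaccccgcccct
Fosb: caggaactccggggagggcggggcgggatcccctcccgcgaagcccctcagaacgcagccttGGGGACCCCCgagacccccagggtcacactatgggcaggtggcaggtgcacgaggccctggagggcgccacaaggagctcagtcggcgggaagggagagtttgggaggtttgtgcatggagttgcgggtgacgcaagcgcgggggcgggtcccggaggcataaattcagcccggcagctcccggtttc
Sqstm1: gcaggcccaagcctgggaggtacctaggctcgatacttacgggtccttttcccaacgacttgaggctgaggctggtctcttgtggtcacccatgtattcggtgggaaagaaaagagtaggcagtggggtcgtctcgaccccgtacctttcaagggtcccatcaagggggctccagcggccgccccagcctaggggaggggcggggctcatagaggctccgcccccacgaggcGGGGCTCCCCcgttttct
Gbp3: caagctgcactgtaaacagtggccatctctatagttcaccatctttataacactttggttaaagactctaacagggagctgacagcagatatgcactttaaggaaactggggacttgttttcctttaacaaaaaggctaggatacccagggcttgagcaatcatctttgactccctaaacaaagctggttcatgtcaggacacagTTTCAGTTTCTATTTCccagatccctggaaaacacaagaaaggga
The windows and motifs were chosen after the genes that passed the test were known. Windows were searched for 10 of the 12 genes that rose, without *Ier2* and *Ttr*, and for 8 of the 11 that fell. Among the genes that fell, *Ctgf*, *Slc7a5* and *Tpx2* were not searched. Whether the genes left out carry these motifs was not tested. *Gbp3* had 2 windows, of which the one not shown held no match. The search used 7 motifs on both strands. The NF-kappaB consensus occurred in 3 of the 10 genes that rose, 29 bases before the start in *Nfkbia*, 188 in *Fosb* and 18 in *Sqstm1*, and in 1 of the 8 that fell, *Birc5*, and 3.90% of 32851 promoter windows of this length held it. The interferon-stimulated element occurred in *Gbp3* (45 and 39 bases before the start) and *Arl6ip1* (117 bases) among the genes that fell, in none of those that rose, and in 2.98% of all windows. An AP-1 site (TGANTCA, 6.75% of all windows) was found in *Avp*, and the CArG box (1.47%), the cyclic AMP response element (TGACGTCA, 1.55%), the cell cycle homology region (TTTGAA, 16%) and the TEAD site (GGAATG, 12.6%) were in no window of the 18 genes. The *Icam1* window held no exact match to any of the 7. It holds tggaaattcc, which departs from the NF-kappaB pattern searched only in its first base, a stretch looked at after the search. Near matches were not counted in any window, so how common they are is not known.

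Fewest cells had 2 of the 6 genes detected, between the many cells with none or 1 and those with more, with no empty gap between them. None was seen in 13445 cells, 1 in 405, 2 in 20, 3 in 31, 4 in 50, 5 in 88 and all 6 in 82. At the edge of the rule, the 20 cells with 2 genes had a median of 2558 UMIs and 3 UMIs of the 6 genes, and the 31 cells with 3 genes a median of 2060 UMIs and 6 UMIs of the 6 genes. These genes chose the cells, so their levels are given as a description. *Flt1*, a VEGF receptor, was detected in 91.8% of control and 91.5% of *Eed-cKO* endothelial cells. *Cldn5*, the main tight junction claudin of brain vessels, was detected in 89.6% and 92.3%, *Cdh5*, the cadherin of endothelial adherens junctions, in 87.3% and 90.6%, and *Pecam1*, a platelet and endothelial adhesion molecule, in 83.6% and 82.9%. *Ly6c1* was detected in 86.6% and 84.6% and *Ly6a* in 52.2% and 42.7%, and reads of these related family members may be hard to assign. In the cells that were not endothelial, each of the 6 genes had a UMI in 0.0993% to 0.936% of control and 0.132% to 2.67% of *Eed-cKO* cells, the highest being *Cdh5* in both, with 66 control and 182 *Eed-cKO* cells.

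The label was checked against genes outside the rule. Of 3674 genes with at least 100 UMIs in the endothelial cells, 415 had a CPM (UMI count scaled to a common total) over 10 times that in the 13445 cells with none of the 6 genes, called other cells here. The 10 highest ratios were those of *Tmem252*, *Myct1*, *Abcb1a*, *Pglyrp1*, *Robo4*, *AU021092*, *Aplnr*, *Vwf*, *Cd93* and *Slc38a5*. *Abcb1a* encodes the drug efflux pump P-glycoprotein and had 424 CPM in endothelial against 0.199 CPM in other cells. *Cd93*, a surface lectin of endothelium, had 1518 against 1.34 CPM and was detected in 95.6% of endothelial cells. *Slc38a5*, a glutamine transporter, had 1158 against 1.04 CPM, and *Vwf*, the clotting factor stored in endothelium, 612 against 0.527 CPM. Of the lymphatic markers, *Prox1* had 3 UMIs in 1 control cell and 1 UMI in 1 *Eed-cKO* cell. At least 3 pericyte markers were found in 5 of the 251 cells, at least 3 fibroblast markers in 4 and at least 3 microglia markers in 0, which allows a share of up to 1.2%.

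The share of endothelial cells differed between genotypes by less than the spread between embryos. It ran from 0.960% to 2.78% over the 6 control embryos (median 1.95%, 1.83% ± 0.686, mean ± SD) and from 0.860% to 2.53% over the 9 *Eed-cKO* embryos (median 1.62%, 1.65% ± 0.475). The ranges overlapped almost fully and the difference was -0.185 percentage points (exact two-sided permutation test over 5005 splits of the embryos, p = 0.539). The number of endothelial cells per embryo was 10 to 37 in control and 4 to 25 in *Eed-cKO*, so that single shares had wide exact binomial intervals, such as 0.235% to 2.19% for *Eed-cKO* embryo 6. *Eed-cKO* embryos 6 and 9 with 4 endothelial cells each were left out of the expression tests. The UMIs per endothelial cell had embryo medians of 3632.5 to 7854 over control embryos, with 5168.5 in the middle, and of 3089 to 8947 over the 7 *Eed-cKO* embryos, with 5737 in the middle, a difference of means of -74.6 UMIs (exact two-sided permutation test, p = 0.938).

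**Figure D1:**
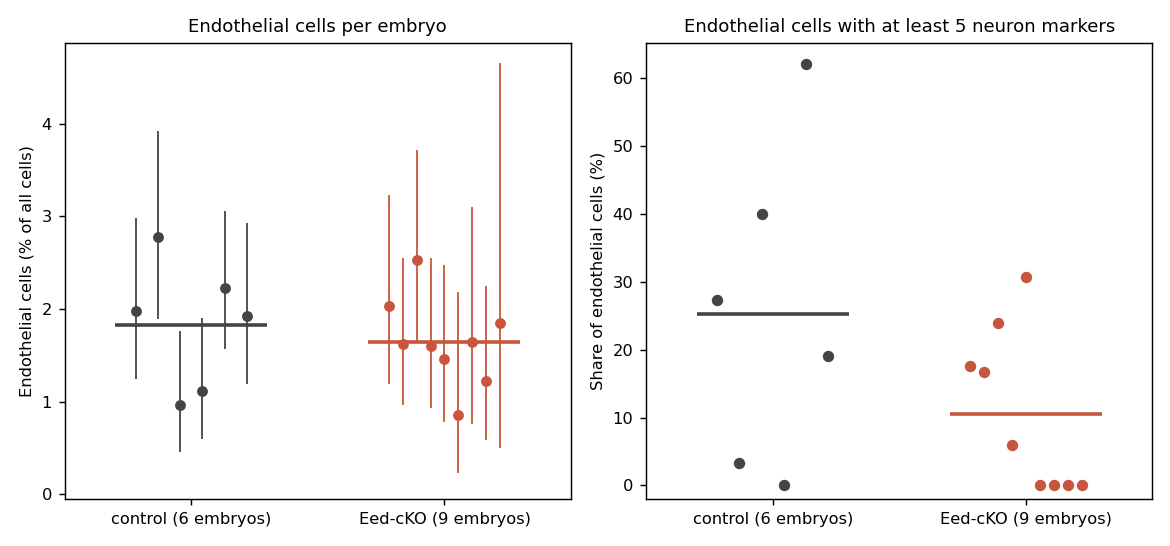
Left, endothelial cells as a percentage of all cells, 1 point per embryo with its exact 95% binomial interval, which covers counting error only, and the group mean as a horizontal line. Right, percentage of endothelial cells with at least 5 neuron markers per embryo, with the group mean. The shares of endothelial cells overlap between genotypes, while 1 control embryo reaches 62.2% on the right.

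Some endothelial barcodes also carried neuronal transcripts, and their number differed between embryos. At least 5 of 18 neuron markers were found in 38 control (28.4%) and 17 *Eed-cKO* (14.5%) endothelial cells, called mixed here. Control embryo 5 held 23 of the 38, and without it 15 of 97 control endothelial cells (15.5%) were mixed. The mixed share was 0% to 62.2% over control embryos, the highest in control embryo 5, and 0% to 30.8% over *Eed-cKO* embryos. The libraries held 1112165 to 4513505 UMIs in control and 576432 to 2410229 in *Eed-cKO*. Control embryo 5 held the library with the most cells, 1207 against 465 in the next, of which 25 were endothelial. Mixed cells had a median of 6383.5 UMIs in control and 8947 in *Eed-cKO*, above the 4165.5 and 4522.5 UMIs of the unmixed cells. The summed level of the 18 neuron markers over embryos was 297 to 7237 CPM in control and 176 to 7339 CPM in *Eed-cKO* endothelial cells, none of the 18 was at 0, and without mixed cells it was 437 and 400 CPM over the pooled cells. Of 101 barcodes that occurred in 2 or more libraries, 3 were in endothelial cells, all *Eed-cKO*. The gene tests below were therefore also run in the 96 control and 100 *Eed-cKO* unmixed cells, where 8206 genes could be tested, and without the largest control library.

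The targeted gene could not check the deletion, because the exons between the loxP sites lie upstream of the 3′ end at which transcripts were counted. *Eed* (chr7:89954654-89980983) was at 16.6 to 59.0 CPM over control embryos (median 46.8) and from 9.48 to 44.6 CPM over *Eed-cKO* embryos (median 15.5), a log2 fold change of -1.10 ± 0.51 (SE) that did not pass the test (adjusted p = 0.649). In the other cells of the same embryos *Eed* was at 33.7 ± 2.24 (SD) CPM in control and 24.8 ± 2.79 CPM in *Eed-cKO*, which differed by -0.45 on the log2 scale and passed edgeR's test there (adjusted p = 0.000901). Of the 9 tested PRC2 subunits none passed in endothelial cells, with a median log2 fold change of -0.01. Hox genes had few UMIs in endothelial cells, and none of the list could be tested. Control endothelial cells held 0 Hox UMIs, which allows a share of up to 2.24% of cells with a captured UMI and sets no limit on cells that express these genes at a level missed here, and 17 of 117 *Eed-cKO* endothelial cells (14.5%) held 63 UMIs (84.0 CPM). In other *Eed-cKO* cells 45.0% held a Hox UMI (480 CPM, median 4340.5 against 5220 UMIs per cell). Of the 63 UMIs, 44 were in 11 of the 17 mixed cells and 19 in 6 of the 100 unmixed cells (34.1 CPM).

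Expression was compared between genotypes on the UMIs summed per embryo, with 6 control and 7 *Eed-cKO* embryos, by edgeR's quasi-likelihood test with Benjamini-Hochberg adjustment over 9808 genes. At an adjusted p of 0.05, 23 genes (0.235%) passed, 12 higher (0.122%) and 11 lower (0.112%) in *Eed-cKO*, and 724 had an unadjusted p under 0.05. The median log2 fold change of all genes was -0.04. Scaled to library size alone, 19 rose and 11 fell. With the embryos of a litter summed, 0 genes passed and 563 had an unadjusted p under 0.05 in the same edgeR test. Leaving out 1 embryo at a time gave 5 genes (without *Eed-cKO* embryo 2) to 37 genes (without *Eed-cKO* embryo 3), and *Slc7a5*, *Ctgf*, *Arl6ip1*, *Prcp* and *Trim34a* passed in all 13 of these fits, and each of the other 18 in 2 to 10. Among the 23 genes, 3 that rose (*Prcp*, *Hddc3* and *Cebpb*) and 6 that fell (*Ctgf*, *Trim34a*, *Gbp3*, *Rps13*, *Trim12a* and *Tpx2*) did not overlap between genotypes, against 13 (0.133%) and 28 (0.285%) of all genes tested in each direction. In the unmixed cells 8206 genes were tested and 113 passed (1.38%), 65 higher (0.792%) and 48 lower (0.585%), 22 of the 23 among them. Without the largest control library 65 genes passed.

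The genes that rose in the endothelial cells of *Eed-cKO* embryos included *Icam1*, *Nfkbia* and *Cebpb*, by about 3.37, 2.49 and 5.83 times. *Icam1* (chr9:21015985-21028817), the receptor by which leukocytes attach to endothelium, was at 54.1 to 270.1 CPM over control embryos (median 145) and from 218 to 853 CPM over *Eed-cKO* embryos (median 559). The embryos formed a low and a high part in *Eed-cKO*, with 3 at 218 to 223 CPM, inside the control range, and 4 at 559 to 853 CPM, above it. The log2 fold change was 1.75 ± 0.35 (SE) (adjusted p = 0.0255), and *Icam1* was detected in 23.1% of control and 46.2% of *Eed-cKO* endothelial cells (median 4977.5 and 5220 UMIs), against 0.217% and 1.24% of other cells (median 4709 and 4340.5 UMIs). *Nfkbia* (chr12:55489410-55492647), the inhibitor that NF-kappaB induces, was at 352 to 969 CPM over control embryos (median 578) and from 635 to 2897 CPM over *Eed-cKO* embryos (median 1264). Its 3 highest embryos were all *Eed-cKO* and among those high in *Icam1*, and its log2 fold change was 1.32 ± 0.29 (SE) (adjusted p = 0.0449). *Cebpb* (chr2:167688915-167690418), a transcription factor of the acute phase response, was at 0 to 19.8 CPM over control embryos (median 8.67) and from 31.0 to 145 CPM over *Eed-cKO* embryos (median 50.8), with no overlap between genotypes and a log2 fold change of 2.54 ± 0.53 (SE) (adjusted p = 0.0339). *Sqstm1* (chr11:50199366-50210827), the autophagy receptor p62, is outside the naming rule and was chosen after its value was seen, at 241 to 478 CPM over control embryos (median 346) and from 457 to 1151 CPM over *Eed-cKO* embryos (median 744) and a log2 fold change of 1.07 ± 0.23 (SE) (adjusted p = 0.0347). The exons of *Icam1*, *Cebpb* and *Sqstm1* overlap a gene on the other strand, from which their reads may not be told apart. These calls were lost in part of the fits. With 1 embryo left out, *Icam1* passed in 6 of 13 fits (adjusted p up to 0.0853, without *Eed-cKO* embryo 2), *Nfkbia* in 4 (up to 0.175), *Cebpb* in 5 (up to 0.099) and *Sqstm1* in 5 (up to 0.129), the last 3 highest without control embryo 1. *Nfkbia* did not pass with sex as a covariate (adjusted p = 0.113), nor *Cebpb* without the cells that carried 3 markers of another class (adjusted p = 0.0842). In other cells *Icam1* was at 0.445 ± 0.248 and 3.87 ± 0.965 CPM.

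Immediate early genes are transcribed soon after a stimulus, and tissue dissociation can induce them. Of 15 tested, 3 rose and 0 fell, against 0.122% and 0.112% of all genes. A positive fold change was found in 13, against 46.2% of all genes. The median log2 fold change was 1.01 against -0.04 over all genes. *Atf3* (chr1:191170296-191218039), a stress-induced transcription factor, was at 90.1 to 461 CPM over control embryos (median 188) and from 351 to 875 CPM over *Eed-cKO* embryos (median 664), a log2 fold change of 1.42 ± 0.29 (SE) (adjusted p = 0.0255). *Fosb* (chr7:19302696-19310051), a subunit of the AP-1 transcription factor, was at 24.6 to 250.4 CPM over control embryos (median 176) and from 181 to 699 CPM over *Eed-cKO* embryos (median 474), a log2 fold change of 1.51 ± 0.32 (SE) (adjusted p = 0.0347). *Ier2* (chr8:84661331-84662852) was at 138 to 395 CPM over control embryos (median 238) and from 359.6 to 940.1 CPM over *Eed-cKO* embryos (median 512), a log2 fold change of 1.27 ± 0.24 (SE) (adjusted p = 0.0249). For all 3 the ranges of the genotypes overlapped. In other cells of the same embryos 12 of the 15 rose and 0 fell, with a median of 1.24, against 13.6% of all genes that rose there. None of the 15 passed the test of a difference between endothelial and other cells. Without the other cells that carried at least 3 markers of pericytes, fibroblasts or microglia, 1 was more negative in endothelial cells, against 1.25% of all genes. In unmixed endothelial cells 10 of 15 rose and 0 fell, against 0.792% and 0.585% of all genes in that fit. The 7 that passed only there were *Fos*, *Jun*, *Junb*, *Egr1*, *Ier3*, *Zfp36* and *Nr4a1*, chosen after their values were seen, with log2 fold changes of 0.82 (*Nr4a1*, adjusted p = 0.00739) to 1.70 (*Egr1*, adjusted p = 0.00174).

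Other genes that rose were *Dusp2*, *Adamts1*, *Prcp* and *Hddc3*. *Dusp2* (chr2:127336159-127338376), a phosphatase of MAP kinases, was at 96.9 to 224 CPM over control embryos (median 152) and from 145 to 953 CPM over *Eed-cKO* embryos (median 486), a log2 fold change of 1.6 ± 0.31 (SE) (adjusted p = 0.0255). *Adamts1* (chr16:85793827-85803113), a secreted protease that cuts matrix proteoglycans, was at 111 to 527 CPM over control embryos (median 300.3) and from 496 to 1021 CPM over *Eed-cKO* embryos (median 598), a log2 fold change of 1.11 ± 0.25 (SE) (adjusted p = 0.0474). *Prcp* (chr7:92874470-92934583), a lysosomal carboxypeptidase that cleaves angiotensin II, was at 85.6 to 295 CPM over control embryos (median 184) and from 359.6 to 667 CPM over *Eed-cKO* embryos (median 457). All 7 *Eed-cKO* embryos were above all 6 control embryos, and the log2 fold change was 1.40 ± 0.25 (SE) (adjusted p = 0.0119). *Hddc3* (chr7:80343104-80350547) was at 0 to 13.8 CPM over control embryos (median 5.55) and from 25.4 to 80.8 CPM over *Eed-cKO* embryos (median 48.6), also without overlap, with a log2 fold change of 3.09 ± 0.61 (SE) (adjusted p = 0.0255) on 4 control and 40 *Eed-cKO* UMIs. Its exons overlap those of *Man2a2* on the other strand. In other cells *Hddc3* also rose, from 15.6 to 104 CPM over the pooled cells. This rise was 2.67 on the log2 scale and passed edgeR's test (adjusted p = 3.83e-13). Of 41 UMIs in endothelial cells of all *Eed-cKO* embryos, 14 were in mixed cells. In unmixed cells the gene also passed the test (3.23, adjusted p = 0.00991). Whether transcripts of other cells added to its endothelial level was not tested. The remaining gene of the 12, *Ttr*, the thyroid hormone carrier made by choroid plexus, rested on few cells. Of its 3826 *Eed-cKO* UMIs 2443 were in 1 cell and all were in 5 cells, with 69375 CPM in *Eed-cKO* embryo 7, and 5 UMIs were found in 1 control cell.

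**Figure D2:**
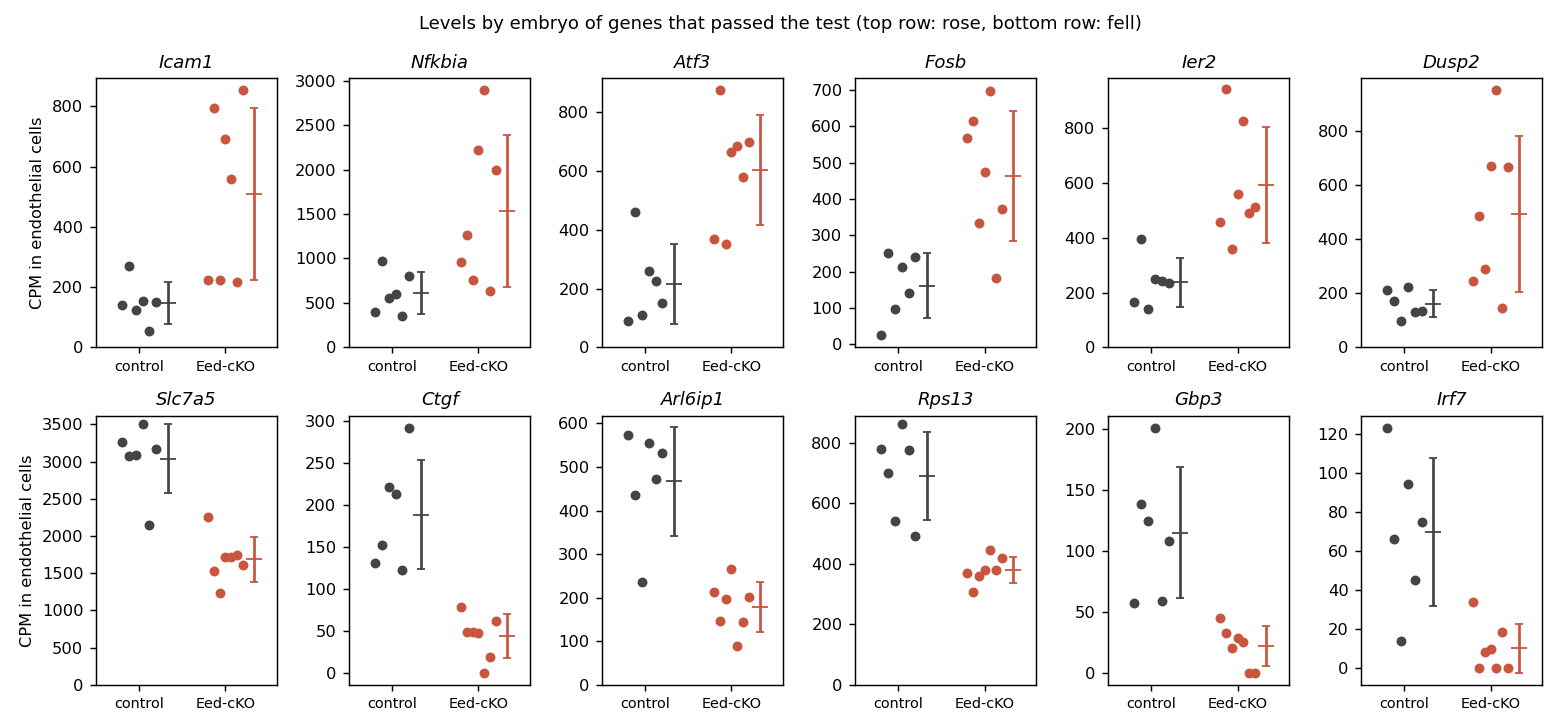
CPM in endothelial cells of 12 of the genes that passed the test, 1 point per embryo (6 control, 7 *Eed-cKO*), with mean ± SD beside the points. Genes that rose in *Eed-cKO* are in the top row and genes that fell in the bottom row, each on its own axis from about 0, and *Ctgf*, *Rps13* and *Gbp3* have no overlap between genotypes.

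Among transporters of the blood-brain barrier, *Slc7a5* fell and no other passed the test. *Slc7a5* (chr8:121881150-121907694), which carries large neutral amino acids and thyroid hormone across the barrier, was at 2154 to 3502 CPM over control embryos (median 3125) and from 1240.3 to 2254 CPM over *Eed-cKO* embryos (median 1715). Control embryo 5, at 2154 CPM, was the only control embryo in the *Eed-cKO* range, and the log2 fold change was -0.85 ± 0.15 (SE) (adjusted p = 0.0119). Of 27 transporter genes tested, 1 fell and 0 rose, against 0.112% and 0.122% of all genes. A negative fold change was found in 24, against 53.8% of all genes. The median was -0.31 against -0.04 over all genes. In other cells the median of the same genes was 0.05. The most abundant others were *Bsg*, the partner protein of lactate transporters, at 8467 to 12861 CPM over control embryos (median 9842) and from 4837 to 8748 CPM over *Eed-cKO* embryos (median 6497) (adjusted p = 0.0919), and *Slc2a1*, the glucose transporter, at 3539 to 5036 CPM over control embryos (median 3978) and from 2485 to 3971 CPM over *Eed-cKO* embryos (median 3554) (adjusted p = 0.786). Neither passed the test in all endothelial cells. In unmixed cells 8 of the 27 fell and 0 rose, against 0.585% and 0.792% of all genes in that fit. Beside *Slc7a5* (-0.99 ± 0.15, adjusted p = 3.27e-05) these were *Slc16a1*, a lactate and ketone transporter (-1.45 ± 0.28, adjusted p = 0.000967), *Bsg* (-0.71 ± 0.14, adjusted p = 0.00191), *Slco1c1*, a thyroid hormone transporter (-0.81 ± 0.18, adjusted p = 0.0051), *Mfsd2a*, which carries omega-3 lipids and restrains transcytosis (-0.75 ± 0.16, adjusted p = 0.00555), *Slc40a1*, the iron exporter, *Slc7a1*, the cationic amino acid transporter, and *Pglyrp1*. Of these 8, all but *Slc7a5*, *Bsg* and *Slc7a1* were chosen after their values were seen. *Mfsd2a* was at 1284 to 2297 CPM over control embryos (median 1765) and from 665 to 1372 CPM over *Eed-cKO* embryos (median 1054) in all endothelial cells (adjusted p = 0.0739).

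Few other barrier and vessel genes passed the test, which does not show that the rest were unchanged. Of 13 tight junction and barrier genes none passed, with a median of -0.05. *Itm2a*, *Esam*, *Lsr* and *Tjp1*, the most abundant, were at log2 fold changes of 0.05, -0.10, -0.02 and 0.05. Of 8 barrier transcription factors none passed, 7 were negative and the median was -0.37. Of 18 Wnt pathway genes none passed (median -0.08), and of 10 VEGF and angiopoietin receptors and ligands none (median -0.26). *Kdr*, the main VEGF receptor of endothelium, was at 685 to 1989 CPM over control embryos (median 1286) and from 848 to 1852 CPM over *Eed-cKO* embryos (median 1163), a log2 fold change of -0.11 ± 0.21 (SE) (adjusted p = 0.995). Of 36 endothelial identity genes *Icam1* alone rose and 0 fell, with a median of -0.10. None of 12 arterial genes (median -0.17), 12 TGF-beta and BMP genes (-0.17), 12 tip cell genes (-0.10), 10 flow response genes (0.01), 8 genes of fenestrated endothelium (0.54) and 13 hypoxia genes (-0.20) passed, and of 9 venous genes *Icam1* alone rose (-0.05). Over all genes 0.122% rose and 0.112% fell. In the same edgeR test 66.7% of tip cell genes had an unadjusted p under 0.05 (4 higher, 4 lower), against 7.38% of all genes. This share was 50% for fenestrated endothelium (3 higher, 1 lower), 40% for flow response (2 and 2) and 37.5% for barrier transcription factors (0 and 3). Over the other lists named here it ran from 0% (tight junction and barrier genes) to 33.3% (TGF-beta and BMP). In unmixed cells *Sox7* (1.06 ± 0.21, adjusted p = 0.00174), a vascular transcription factor, *Hes1* (1.01 ± 0.21, adjusted p = 0.00281), a Notch target, and the tip cell genes *Plaur*, *Trp53i11* and *Esm1* rose, and *Apln* (-1.22 ± 0.29, adjusted p = 0.0103), the tip cell ligand of the apelin receptor, *Eng*, *Nrp1* and *Edn1* fell. These 9 were chosen after their values were seen, and the 21 *Esm1* UMIs of *Eed-cKO* were in 5 cells.

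Among the genes that fell, *Ctgf* (chr10:24595442-24598683, now *Ccn2*), a matricellular protein and target of YAP and TEAD, was at 122 to 291 CPM over control embryos (median 182) and from 0 to 78.1 CPM over *Eed-cKO* embryos (median 48.5). Every control embryo was above every *Eed-cKO* embryo, and the log2 fold change was -2.01 ± 0.35 (SE) (adjusted p = 0.0119). *Arl6ip1* (chr7:118118891-118129662), a protein of endoplasmic reticulum membranes, was at 235 to 574 CPM over control embryos (median 503) and from 88.9 to 266 CPM over *Eed-cKO* embryos (median 198), a log2 fold change of -1.35 ± 0.23 (SE) (adjusted p = 0.0119). *Rps13* (chr7:116331505-116334195), a ribosomal protein, was at 491 to 861 CPM over control embryos (median 737) and from 308 to 445 CPM over *Eed-cKO* embryos (median 379), a log2 fold change of -0.87 ± 0.17 (SE) (adjusted p = 0.0255). *Gbp3* (chr3:142560026-142573209), a guanylate-binding protein, was at 57.4 to 200.5 CPM over control embryos (median 116) and from 0 to 44.6 CPM over *Eed-cKO* embryos (median 25.4), a log2 fold change of -2.22 ± 0.44 (SE) (adjusted p = 0.0255). *Irf7* (chr7:141262706-141266481), the transcription factor that amplifies type I interferon, was at 13.8 to 123 CPM over control embryos (median 70.4) and from 0 to 33.5 CPM over *Eed-cKO* embryos (median 8.08), a log2 fold change of -2.67 ± 0.58 (SE) (adjusted p = 0.0413). *Trim34a* (chr7:104244457-104262234), a TRIM family gene, was counted 33 times over all control embryos and 0 times in *Eed-cKO*, at least 9.75-fold lower when *Eed-cKO* is set at a floor of 3 UMIs over the group (adjusted p = 0.0119). *Trim12a* (chr7:104299894-104315466) had 26 and 0 UMIs, at least 7.68-fold lower (adjusted p = 0.0255). Of the list of 12 interferon and antigen presentation genes *Irf7* alone fell and 0 rose, against 0.112% and 0.122% of all genes, and the median was -0.25. Reads of *Trim34a*, *Trim12a*, *Gbp3* and *Rps13* may be shared with related genes or pseudogenes, and *Ctgf*, *Irf7* and *Trim34a* overlap exons on the other strand.

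Of the 23 genes 8 lie on chromosome 7, which also carries *Eed*, against 7.28% of 9762 genes tested that had a position. They are *Prcp*, 2.92 Mb from *Eed* on the side of higher coordinates, *Hddc3* (-9.61 Mb, the sign marking the other side), *Trim34a* and *Trim12a* (14.3 Mb each), *Rps13* (26.4 Mb), *Arl6ip1* (28.2 Mb), *Irf7* (51.3 Mb) and *Fosb* (-70.7 Mb). Of these 8, 7 also passed the test in other cells, 6 of them in the same direction. *Trim34a* and *Trim12a* had a UMI in 25 and 23 other control cells and in 0 other *Eed-cKO* cells. The 195 genes of chromosome 7 made up 7.97% of the genes that passed in other cells. These counts are a description with no test, genotypes at other loci were not analysed here, and litter and genotype cannot be told apart.

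Of 24 cell cycle genes tested in endothelial cells, *Tpx2* and *Birc5* fell and 0 rose, against 0.112% and 0.122% of all genes. A negative fold change was found in 21, against 53.8% of all genes. The median was -1.03 against -0.04 over all genes. *Tpx2* (chr2:152847964-152895321), a spindle assembly factor, was at 52.7 to 69.2 CPM over control embryos (median 66.1) and from 0 to 22.3 CPM over *Eed-cKO* embryos (median 15.5), without overlap and with a log2 fold change of -2.35 ± 0.49 (SE) (adjusted p = 0.0344). *Birc5* (chr11:117849251-117855743), the mitotic protein survivin, was at 55.4 to 117 CPM over control embryos (median 87.9) and from 0 to 56.9 CPM over *Eed-cKO* embryos (median 8.08), a log2 fold change of -2.28 ± 0.51 (SE) (adjusted p = 0.047). With 1 embryo left out *Tpx2* passed in 5 of 13 fits (adjusted p up to 0.0939, without control embryo 1) and *Birc5* in 2 (up to 0.127, without control embryo 6). *Birc5* did not pass without the cells that carried 3 markers of another class (adjusted p = 0.0617) or without the largest control library (adjusted p = 0.0579). *Ccnd1*, the G1 cyclin, was at 464 to 1174 CPM over control embryos (median 577) and from 222 to 647 CPM over *Eed-cKO* embryos (median 248) and did not pass in all endothelial cells (-1.0 ± 0.25 (SE), adjusted p = 0.0919), but fell in unmixed cells (-1.0 ± 0.21, adjusted p = 0.00284). *Mki67* and *Top2a*, chosen after their values were seen, were at log2 fold changes of -1.57 ± 0.64 (SE) (adjusted p = 0.511) and -1.53 ± 0.44 (SE) (adjusted p = 0.164). At least 5 of the 24 genes were detected in 36 control (26.9%) and 28 *Eed-cKO* (23.9%) endothelial cells, and in 1.68% and 4.82% of other cells. In the other cells 19 of the 24 rose and 0 fell, against 13.6% and 11.4% of all genes there, with a median log2 fold change of 1.2. Of 6 cell cycle inhibitors none passed in endothelial cells (median -0.19), and in unmixed cells *Cdkn2b* fell (-1.77 ± 0.46, adjusted p = 0.0282).

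**Figure D3:**
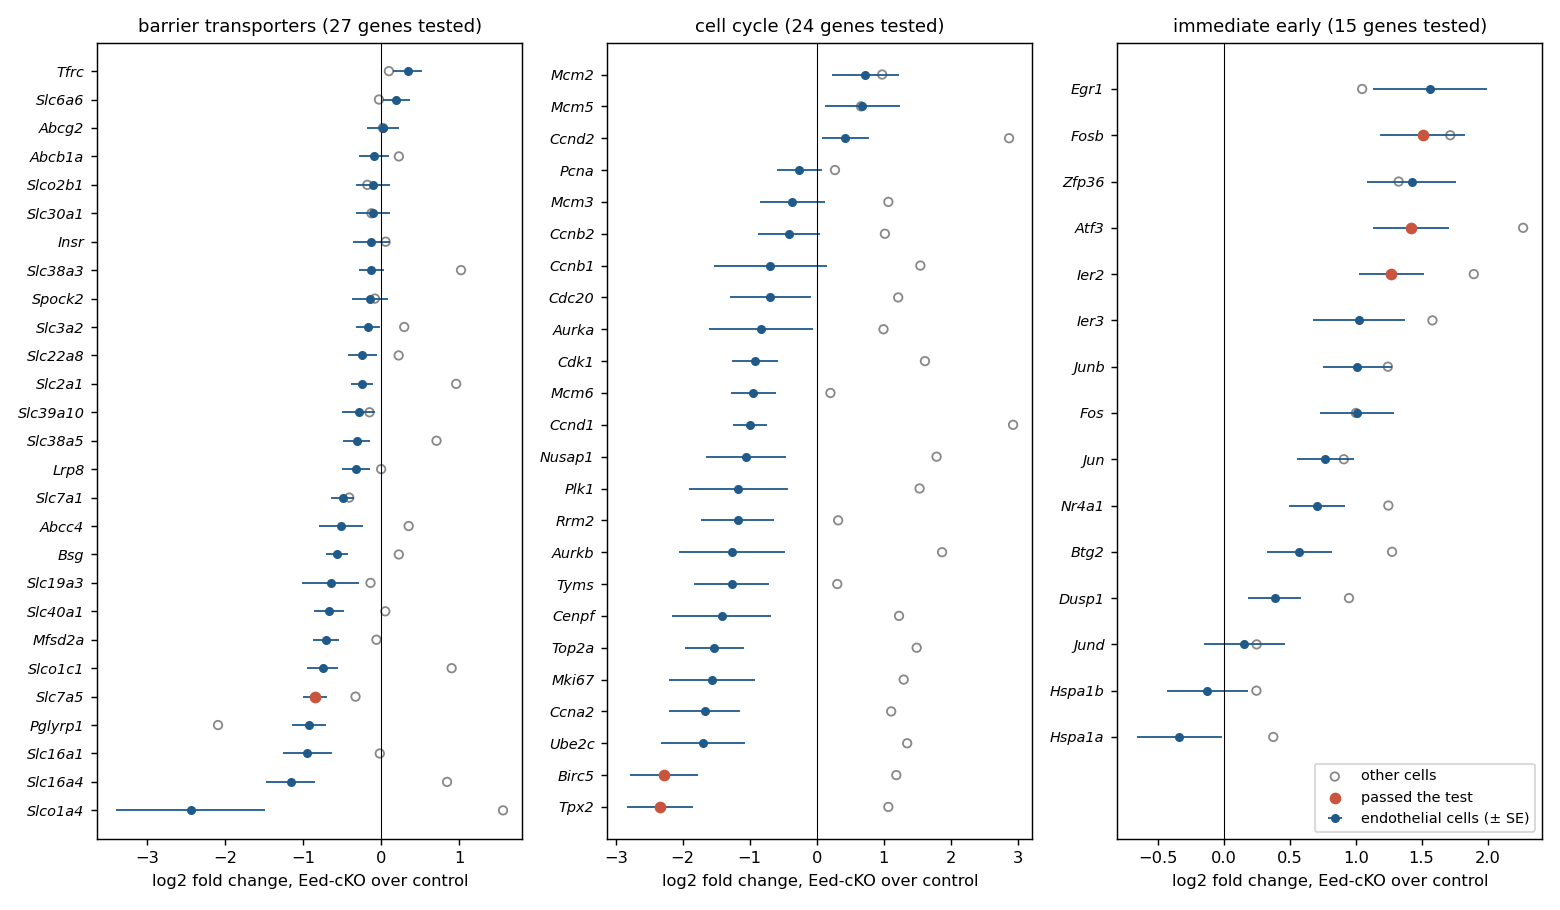
Log2 fold change of *Eed-cKO* over control for every tested gene of 3 lists, in endothelial cells (filled points with SE, red where the gene passed the test) and in other cells (open points). Barrier transporters lie mostly left of 0 (median -0.31), cell cycle genes left of 0 in endothelial (median -1.03) and right of 0 in other cells (1.2), and immediate early genes right of 0 in both (1.01 and 1.24).

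The genotype effect was compared between endothelial and other cells of the same embryos in 1 fit with the embryo as a block. In other cells 1334 of the 9808 genes were higher (13.6%) and 1121 lower (11.4%) in *Eed-cKO* past the test, and 19 of the 23 endothelial genes were among them, 15 in the same direction. The difference between the log2 fold changes passed for 161 genes (1.64%), 6 more positive in endothelial cells (0.0612%) and 155 more negative (1.58%), and 6 of the 23 were among them. The 5 of lowest p among the 155 were *Ccnd1*, *Cdkn2b*, *Tal1*, *Myl12a* and *Bgn*, and in each the level rose in other cells and did not pass the test in all endothelial cells, while *Ccnd1* and *Cdkn2b* fell in the unmixed ones. *Ccnd1* was at 668 ± 261 and 339.7 ± 157 CPM (SD) in endothelial cells of control and *Eed-cKO*, and at 20 ± 5.26 and 152 ± 30.8 CPM in other cells, a difference of -3.94 ± 0.30 (SE, adjusted p = 3.31e-08). *Cdkn2b*, a PRC2 target that inhibits the G1 kinases, was at 88.8 ± 51.6 and 24.4 ± 18.8 CPM in endothelial and 0.284 ± 0.311 and 16.1 ± 3.54 CPM in other cells, a difference of -7.41 ± 0.70 (SE, adjusted p = 1.3e-06). *Tal1*, a transcription factor of blood and endothelial fate, was at 63.3 ± 16.3 and 90.4 ± 50.6 CPM in endothelial and 4.90 ± 2.74 and 97.5 ± 16.3 CPM in other cells, a difference of -3.85 ± 0.40 (SE, adjusted p = 5.91e-06). *Myl12a*, a myosin light chain whose exons overlap those of *Myl12b*, differed by -1.94 ± 0.21 (SE, adjusted p = 7.55e-06), and *Bgn*, the proteoglycan biglycan, by -2.83 ± 0.33 (SE, adjusted p = 2.09e-05).

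Of the 6 genes with a more positive effect in endothelial cells, *Prcp* had the lowest p. It rose in endothelial cells and fell in other cells (14.2 ± 1.86 to 8.64 ± 2.16 CPM), a difference of 2.21 ± 0.29 (SE, adjusted p = 7.99e-05). *Tcf7l2*, a transcription factor of the Wnt pathway, was at 136 ± 119 and 108 ± 39.0 CPM in endothelial and fell from 455 ± 249 to 147 ± 132 CPM in other cells, a difference of 1.64 ± 0.39 (SE, adjusted p = 0.0282). *Bach1*, a repressor of heme oxygenase, differed by 1.3 ± 0.32 (SE, adjusted p = 0.0332), *Ccrn4l*, now *Noct*, by 1.79 ± 0.43 (SE, adjusted p = 0.0268) and *Arhgef7* by 1.04 ± 0.26 (SE, adjusted p = 0.0338). The remaining gene was *Sqstm1* (1.02). Of the other endothelial genes *Ctgf* (-3.79), *Tpx2* (-3.63), *Birc5* (-3.64) and *Adamts1* (-1.53) had more negative effects than other cells.

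**Figure D4:**
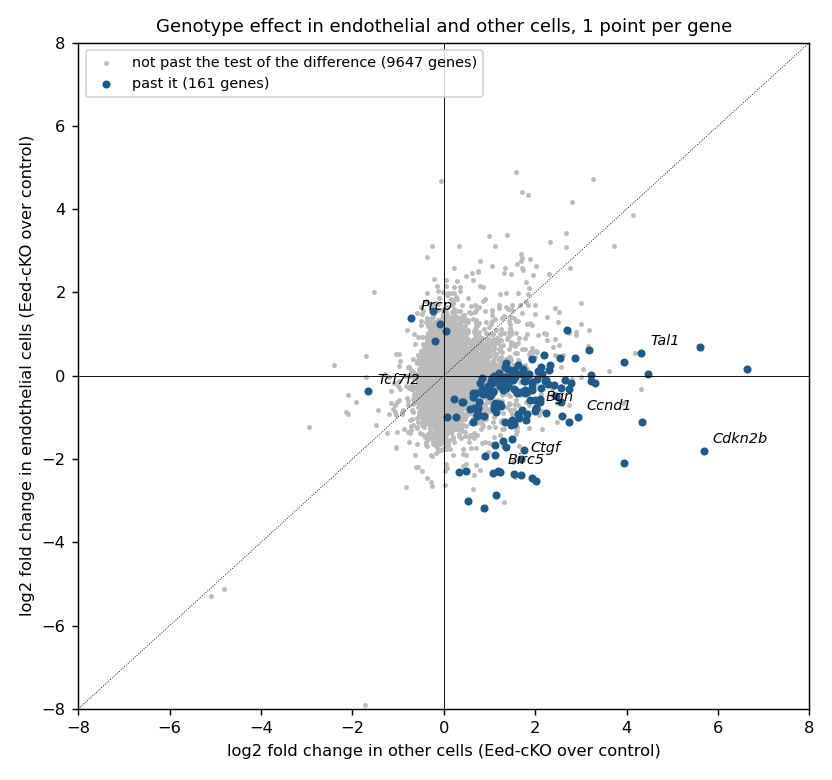
Log2 fold change of *Eed-cKO* over control in other cells (horizontal) and in endothelial cells (vertical), 1 point per gene, with the dotted line where both are equal. Blue points are the 161 genes that passed the test of the difference, nearly all below the line, grey points are the other 9647, and 1 gene lies beyond the axes.

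Of the lists with at least 5 genes tested, basement membrane and cell cycle genes had the largest shares past this test. Of 16 basement membrane genes 12 had a more negative effect in endothelial cells and 0 a more positive one, against 1.58% and 0.0612% of all genes. In endothelial cells none of the 16 passed (median -0.17), and in unmixed cells *Nid1* (-0.77 ± 0.18, adjusted p = 0.0105, chosen after its value was seen) and *Fn1* (-0.62 ± 0.16, adjusted p = 0.0302) fell. In all endothelial cells *Sparc*, *Col4a1*, *Col4a2* and *Fn1* were at -0.20, -0.06, -0.04 and -0.63, and in other cells 12 rose (median 1.14). The summed level of 11 fibroblast markers was 109 CPM in control and 419 CPM in *Eed-cKO* other cells, and its part in this result was not tested. Without the other cells that carried at least 3 markers of pericytes, fibroblasts or microglia, 129 genes passed (1.32%), 123 more negative (1.25%) and 6 more positive (0.0612%), and 5 of the 16 basement membrane genes were more negative. Of the 24 cell cycle genes 10 were more negative and 0 more positive, also 10 without those cells, among them *Ccnd1*, *Ccnd2*, *Tpx2* and *Birc5*. Barrier junctions had 5 of 13 more negative, barrier transcription factors 3 of 8, barrier transporters 3 of 27, endothelial identity genes 4 of 36 and cell cycle inhibitors 2 of 6. Without those cells these counts were 0, 2, 2, 4 and 2. Of 18 Wnt pathway genes 3 were more negative and 1, *Tcf7l2*, more positive.

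Markers of other cell types in the endothelial cells give the background for these values. No neuron marker of 18 tested passed (median -0.15). The neuropeptide gene *Avp*, made by hypothalamic neurons, fell in the fit (736 against 1 UMI, adjusted p = 0.0255), but 3 cells held 99.2% of the control UMIs and 732 were in mixed cells, and the gene was not tested without these cells. Of 10 neuropeptide genes tested *Avp* alone passed, against 0.235% of all genes. None of 10 astroglia and progenitor genes (median 0.64), 7 fibroblast genes (3.21), 4 erythroid genes (-0.02), 2 pericyte genes (0.02), 1 microglia gene (-0.47) and 1 lymphatic gene (-0.18) passed. Of the 7 fibroblast genes 5 had an unadjusted p under 0.05, all higher in *Eed-cKO*. In unmixed cells the astroglia and progenitor gene *Hes5* (4.39 ± 1.18, adjusted p = 0.0393, 13 control and 23 *Eed-cKO* UMIs in all endothelial cells) and the fibroblast gene *Slc6a13* (adjusted p = 0.0214, 0 and 29 UMIs) rose, both chosen after their values were seen. The 11 fibroblast markers summed to 0 to 92.9 CPM over control embryos, with 5 genes at 0, and to 0 to 1164 CPM over *Eed-cKO* embryos, with 1 gene at 0. The 15 pericyte and smooth muscle markers summed to 0 to 212 and 0 to 121 CPM, and the 14 microglia markers to 49.5 to 143 and 31.3 to 140 CPM, with 10 of them at 0 in both groups. The part of these cells in the results was not tested, beyond the fit without endothelial cells that carried 3 markers of another class, in which 32 genes passed.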

How the data were processed

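The authors deposited 1 table of raw UMI counts per gene and cell (16510 genes, 14121 cells) for the hypothalamus at E18.5, made from droplet 3′ libraries and already filtered on cells, the lowest cell holding 601 UMIs. Per the submitters' processing notes, STAR 2.5.2b, SAMtools 1.3 and build mm10 were used. Whether the counting used strand is not given in the sources used here. The labels gave genotype and sex, and the embryo and litter were read from the library names. Control embryos 1 and 6 and *Eed-cKO* embryos 1, 4, 5, 6 and 8 were female, and the others were male. The main tests had no term for sex. The cell rule and the gene lists were chosen with earlier results of these data known.

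No doublet caller was run. Cells with at least 5 neuron markers were counted as mixed. The shares and the gene tests were repeated without them, for the genes that still passed the filter, and the UMIs per cell were not. Counts were summed per embryo with at least 5 endothelial cells (6 control, 7 *Eed-cKO*), genes with at least 15 UMIs in all and 2 in an embryo were kept, and edgeR 4.0.16 (R 4.3.3) was run with TMM normalization, the quasi-likelihood test and Benjamini-Hochberg adjustment at 0.05. This step was tested on simulated data, with changes set in genes of at least 50 expected UMIs. It recovered 29% of 2-fold and 87% of 4-fold changes, and 6.45% of its calls were false. The test of the difference between cell types recovered 15% and 78% in the same way, with 4.12% of its calls false. The simulated embryos had no litter effect and fewer UMIs were not tried, so these shares may not hold for the real embryos or for rarer genes. Levels are CPM after TMM in tested sums and CPM of all UMIs otherwise. The SE is the size of the log2 fold change divided by the square root of F. Other cells had none of the 6 genes. Shares and UMIs per cell were compared by exact two-sided permutation of embryos (scipy 1.17.1, Python 3.11.15), whose smallest possible p for shares is 0.00040. Intervals are exact (Clopper-Pearson, 95%), and a count of 0 was read against 3 counts. Both cover counting error only.

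Named genes were the 6 rule genes, the 10 largest rises and falls past the test with a UMI in at least 5 embryos, *Eed*, for each list its members past the test or else the up to 4 most abundant, the 10 highest ratios to other cells and the 5 lowest p in each direction of the test between cell types. Gene positions came from GENCODE vM21 (GRCm38) and promoter windows from RefSeq. DESeq2 1.42.0 and limma 3.58.1 were alternatives.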

Additional observations from a re-analysis of the deposited data

Results flagged for a closer look

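In 5 of 50 groups of embryos tested, 1 embryo stood apart from the others of its genotype by Dixon's test at 95%, and chance flags about 1 in 20 groups. *Slc7a5* was lowest in control embryo 5, at 2154 CPM. *Avp* was highest in control embryo 5, at 3290.0 CPM, and the only *Eed-cKO* embryo with a UMI was embryo 3, at 4.04 CPM. *Ttr* was found in control embryo 3 alone, at 69.2 CPM, and reached 69375 CPM in *Eed-cKO* embryo 7.

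The genotype effect differed between endothelial and other cells for 15 of the named genes, by edgeR's test of the difference. The log2 fold change was higher in endothelial cells by 2.21 for *Prcp*, 1.79 for *Ccrn4l*, 1.64 for *Tcf7l2*, 1.3 for *Bach1*, 1.04 for *Arhgef7* and 1.02 for *Sqstm1*. The difference was negative for *Cdkn2b* (-7.41), *Ccnd1* (-3.94), *Tal1* (-3.85), *Ctgf* (-3.79), *Birc5* (-3.64), *Tpx2* (-3.63), *Bgn* (-2.83), *Myl12a* (-1.94) and *Adamts1* (-1.53).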

How the results depend on the processing

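No paired analysis was possible because each embryo has 1 genotype, no litter held both and the replicate numbers follow accession order, so the fit with a replicate block could not be made. Against 23 genes, 50 passed with DESeq2 (13 of them shared, with 7607 adjusted p not given), 7 with limma, 73 without a gene filter, 13 with at least 50 UMIs, 36 in embryos with at least 10 endothelial cells, 35 with sex as a covariate, 0 with litters summed, 113 without mixed cells and, as an alternative chosen after seeing the data, 65 without the largest control library. The cause was not tested. Leaving out 1 embryo gave 5 to 37 genes, with 5 without *Eed-cKO* embryo 2, 6 without *Eed-cKO* embryo 5, 8 without control embryo 1, 9 without control embryo 3 or 6, 11 without control embryo 4, 36 without control embryo 2 or *Eed-cKO* embryo 7 and 37 without *Eed-cKO* embryo 3. The 161 genes that differed from other cells ran from 129 to 239 over the other settings and from 112 to 172 with 1 embryo left out. The difference in the endothelial share became 0.0777 percentage points without mixed cells, and ran from -0.359 to 0.00473 with 1 embryo left out. The difference in UMIs per cell turned to 108 with means, 75.8 with at least 4 genes and 195 without the largest library, and ran from -666 to 402 with 1 embryo left out. *Ttr* turned to -2.38 under DESeq2. Over the 23 genes and all other fits of the genotype test, those with 1 embryo left out included, 460 values kept their side of the threshold. Another 198 no longer passed or had no adjusted p, and 1 reversed. With 4 to 37 endothelial cells per embryo, small differences and rare genes were beyond this depth.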
